A study of Mus musculus with 2 samples.

Results

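The 9 genes described here belong to families of mainly secreted proteins, some of which bind small hydrophobic molecules in nasal mucus. They are Bpifa1, Bpifb3, Bpifb4, Bpifb9a and Bpifb9b of the BPI-fold family, and Obp1a, Obp2a, Obp2b and Lcn3 of the lipocalin family. They were named by symbol, and all 9 were found among the 31053 genes of the count matrix, which joins both libraries. The study profiled single cells from the olfactory epithelium of a male C57BL/6 mouse in which 1 naris had been occluded at postnatal day 14, with the tissue taken at postnatal day 28. The occluded (closed) side and the open side each gave 1 library, made with the Chromium 3′ v3 chemistry from frozen dissociated cells after removal of dead cells, with a targeted capture of 10000 per sample. The labels describe a single mouse, and both sides share its genotype, age and operation, so the open side is not tissue from an animal without an occlusion. The matrix marks the libraries only by a barcode suffix, 1 or 2. No label ties a suffix to a side, so the groups are called library 1 and library 2, and no value below is assigned to the open or the closed side.

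BPI-fold proteins carry lipid-binding folds related to the bactericidal/permeability-increasing protein; the short form, with a single such domain, includes Bpifa1, and the long form, with a pair of them, includes the Bpifb genes. Lipocalins are small barrel-shaped carriers, and the odorant-binding proteins among them bind odorants in the mucus that covers the olfactory cilia. In the nose, the secretory cells that make members of these families include those of the Bowman's glands beneath the olfactory epithelium, of other nasal glands and of the respiratory epithelium.

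The genes lie in 3 groups of neighbours (GENCODE M21 annotation, GRCm38, the mm10 build named in the submitters' processing notes), and all 9 are annotated as protein-coding. Obp2a (chr2:25700043-25703326), Obp2b (chr2:25737009-25740097) and Lcn3 (chr2:25765569-25768099) follow each other on the forward strand. The BPI-fold genes lie farther along the same chromosome and on the same strand, in the order Bpifb3 (chr2:153918230-153932996), Bpifb4 (chr2:153938212-153964101), Bpifa1 (chr2:154142880-154149219), Bpifb9a (chr2:154257854-154271245) and Bpifb9b (chr2:154307227-154320646). Obp1a (chrX:78085505-78091374) lies on the reverse strand of chromosome X. The 100 bases just upstream of the gene start (the more upstream of the RefSeq and GENCODE starts) are printed below for 8 of the 9 genes, from RefSeq, GRCm38.p6. They are shown because the pairs with the most alike upstream sequence, Obp2a with Obp2b and Bpifb9a with Bpifb9b, were each high in the same cells, and because 7 of the 8 share the letters TATAAA, set in capitals, at nearly the same distance from the start. The windows are chr2:25699943-25700042 for Obp2a, chr2:25736907-25737006 for Obp2b, chr2:25765433-25765532 for Lcn3, chrX:78091375-78091474 for Obp1a (reverse strand), chr2:154257754-154257853 for Bpifb9a, chr2:154307127-154307226 for Bpifb9b, chr2:154142780-154142879 for Bpifa1 and chr2:153918098-153918197 for Bpifb3.
Obp2a: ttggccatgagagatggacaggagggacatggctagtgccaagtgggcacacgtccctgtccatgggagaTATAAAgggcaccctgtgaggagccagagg
Obp2b: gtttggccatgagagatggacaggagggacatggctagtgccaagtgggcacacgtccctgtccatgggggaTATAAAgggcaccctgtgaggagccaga
Lcn3: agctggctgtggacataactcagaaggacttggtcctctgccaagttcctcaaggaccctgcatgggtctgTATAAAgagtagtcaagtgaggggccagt
Obp1a: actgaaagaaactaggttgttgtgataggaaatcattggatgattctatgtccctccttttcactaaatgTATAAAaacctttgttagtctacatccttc
Bpifb9a: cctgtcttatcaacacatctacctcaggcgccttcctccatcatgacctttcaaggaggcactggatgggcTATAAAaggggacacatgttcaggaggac
Bpifb9b: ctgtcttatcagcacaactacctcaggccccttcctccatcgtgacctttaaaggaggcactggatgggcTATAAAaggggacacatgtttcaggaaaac
Bpifa1: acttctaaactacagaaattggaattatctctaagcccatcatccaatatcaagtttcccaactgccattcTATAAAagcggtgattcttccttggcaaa
Bpifb3: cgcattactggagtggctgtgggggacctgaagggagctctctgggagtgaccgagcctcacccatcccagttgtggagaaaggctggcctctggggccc
TATAAA began 28 to 30 bases before the end of these windows in the 7 genes that hold it. Counted from the RefSeq start alone, it began 28 to 61 bases before, with Obp2a at 61, Bpifb9a at 54 and Bpifb9b at 47. The 7 genes include both near-identical pairs, so they are not 7 separate matches. Over the 250 bases before the RefSeq start, the motif was found on the gene's own strand in 7 of 9 members, against 7.59% of 32851 windows of that length over all genes (12.4% on either strand), and Bpifb3 and Bpifb4 had no match. Upstream identity was 98.6% between Obp2a and Obp2b over 217 aligned bases and 95.04% between Bpifb9a and Bpifb9b over 242. It was 68.5% between Obp1a and its neighbour Obp1b over 219 and 70.8% between Obp2a and Lcn3 over 195, pairs that were also high in the same cells, so shared cells were not limited to near-identical upstream sequence. A match is a description of the letters and does not show that a factor binds there.

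Library 1 held 4501 barcodes and 27212821 unique molecular identifiers (UMIs, 1 per captured transcript), and library 2 held 7990 barcodes and 49221001 UMIs. Cells were kept with at least 1000 UMIs, 500 genes and at most 10% mitochondrial UMIs, which left 3032 and 5266 cells with a median of 5528 and 5139.5 UMIs. The kept cells fell into 36 clusters, formed without the 9 genes among the genes used. Each cell was first scaled by its total UMIs, which include those of the 9 genes. Other genes high in the same cells, such as Obp1b and Lcn4, were not set aside. The levels of the 9 genes could therefore still affect the clusters. Levels are the gene's UMIs scaled to a common total of UMIs in the cells named (CPM), with exact 95% Poisson intervals that cover counting error only. UMIs are counted at the 3′ end and do not scale with transcript length. With 1 library per side there is no replicate, and no difference between the libraries was tested. The doublet caller marked 7 of 8298 cells, which is too few for it to have worked, so doublets remain in the main values. The libraries shared 12 barcode sequences, of which 6 passed the filter in both.

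One shared barcode decides several values below. In library 1 it is a cell of cluster 26 with 189658 UMIs, 49.9% of that cluster's UMIs in the library. The same sequence in library 2 carried 998 UMIs, 0.526% as many, with nearly the same make-up: Obp1a was 29.8% of its UMIs in library 1 and 30.2% in library 2. The library 2 barcode fell under the filter and entered no cluster. Values without it were added after the data were seen and stand beside the cluster 26 results below.

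In all, 8 of the 9 genes reached their highest level in 2 clusters whose fixed markers gave them the name Bowman's gland-like, and Bpifa1 in a respiratory secretory-like cluster. Cluster 26 (19 and 64 cells in libraries 1 and 2) held Dmbt1, Odam, Pigr, Cldn10 and Kcnn4 among its leading genes, and it was led by other lipocalins such as Obp1b, Lcn11, Mup5, Mup4 and Lcn4. Cluster 25 (37 and 52 cells) held Scgb1c1, Cldn10, Sox9 and Sox10. The shared name hides a difference, since Cldn10 was the only marker that led both. The gland markers Muc5b and Lpo were at 0 in cluster 26 of both libraries, and Dmbt1 and Odam were at 0 in cluster 25. Cluster 13, named gland duct-like and not counted among these 2, held more of some gland markers than either. Sox9 was at 577 and 579 CPM there in libraries 1 and 2, against 158 and 150 in cluster 26. Aqp5 was at 1706 and 1576 CPM against 253 and 401, and Sox10 was also higher. Dmbt1, Odam and Pigr went the other way, higher in cluster 26 than in cluster 13. The clusters are therefore named by number.

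Over both libraries, Obp2a reached 81387 CPM (80972 to 81804), Obp1a 59143 (58789 to 59498), Obp2b 43275 (42973 to 43579), Lcn3 24708 (24480 to 24938), Bpifb9b 6174 (6060 to 6290) and Bpifb9a 2444 (2373 to 2518) in cluster 26. Over the 82 cells of cluster 26 without the shared barcode, Obp1a was at 31157 CPM and Obp2a at 90455. None of the 6 exceeded 448 CPM in any other cluster. Bpifb3 reached 20675 CPM (20467 to 20885) and Bpifb4 2345 (2275 to 2417) in cluster 25, and both were next highest in cluster 13, a gland duct-like cluster with Chil6 and Dcpp3 among its leading genes, at 1384 and 925 CPM. Bpifa1 reached 160489 CPM (159871 to 161109) in cluster 16, a respiratory secretory-like cluster led by Reg3g and Tff2. For each gene the interval of the highest cluster lay above that of the next. Of all UMIs of the 9 genes in kept cells, the clusters named Bowman's gland-like held 33.9% (exact binomial interval 33.7 to 34.1) in library 1 and 56.0% (55.9 to 56.1) in library 2. Most of the remainder was Bpifa1 in other clusters, and the library 1 share was 12.1% without the cells of shared barcodes.

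**Figure D1:**
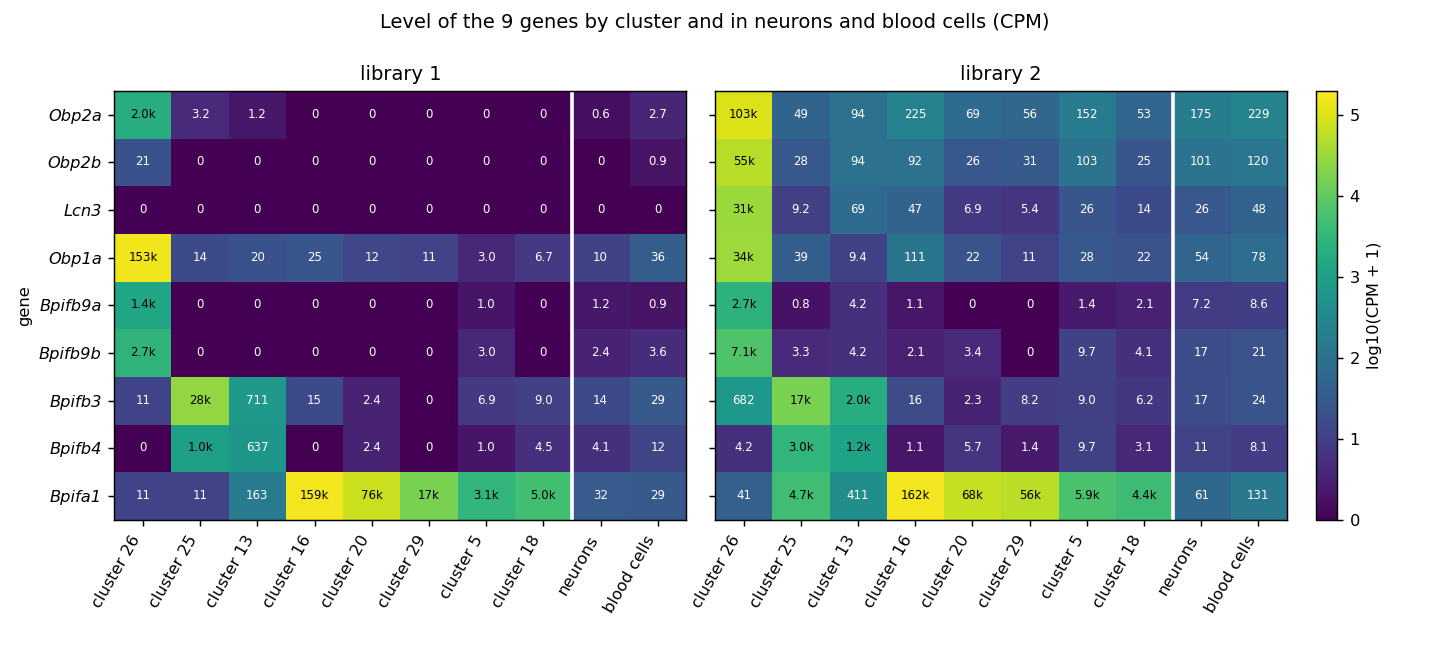
Level of each gene (rows) in 8 clusters and in neurons and blood cells (columns), for library 1 (left) and library 2 (right). Colour is log10(CPM + 1) and the number in each cell is the CPM, with k for 1000. Obp2a, Obp2b and Lcn3 reach 102514, 54782 and 31281 CPM in cluster 26 of library 2 and 1970, 21.0 and 0 CPM in library 1, where all UMIs of Obp2a and Obp2b are from the cell with the shared barcode, while Bpifa1 in cluster 16 is at 158578 and 161868 CPM.

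Obp2a, Obp2b and Lcn3, neighbouring lipocalin genes, had almost all of their UMIs in library 2. Obp2a had 961 UMIs among all barcodes of library 1 and 164242 in library 2, Obp2b had 51 and 87703, and Lcn3 had 0 and 48645. A count of 0 in library 1 allows a level of up to 0.110 CPM. In cluster 26, Obp2a was at 1970 CPM (1831 to 2116) in library 1 and 102514 (101989 to 103040) in library 2, a log2 ratio of 5.70 (5.60 to 5.81). Obp2b was at 21.0 and 54782 CPM (log2 ratio 11.28), and Lcn3 was at least 3964-fold higher in library 2, taking 3 UMIs in the cluster as the floor for library 1. All 749 Obp2a UMIs and all 8 Obp2b UMIs of cluster 26 in library 1 came from the cell with the shared barcode. The other 18 library 1 cells of the cluster, with 190533 UMIs, held 0 UMIs of all 3 genes, which allows up to 15.7 CPM of each. Against that floor Obp2a was at least 6511-fold, Obp2b at least 3479-fold and Lcn3 at least 1987-fold higher in library 2.

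The 3 genes were mostly high in the same cells. Of the 26 kept library 2 cells with Obp2a at 1% or more, 20 had Obp2b and 17 had Lcn3 at 1%. Of the 20 with Lcn3 at 1%, 17 had Obp2a and 18 had Obp2b. Cells were grouped by the summed share of the 3 genes, which alone does not show that they occur together. In library 2, the sum led 19 of the 64 cells of cluster 26 at 1% or more of the cell's own UMIs. In library 1 it led 0 of the 19 cells. The share of the cell's UMIs taken by the 3 genes ran from 17.3% to 75.0% with a median of 47.0%. Within these 19 cells, Obp2a took 0.150% to 40.7% of a cell's UMIs (median 27.1%), Obp2b 0.270% to 27.3% (13.98%) and Lcn3 5.31% to 23.9% (7.44%). As shares of the cell's UMIs, Obp2b followed Obp2a from cell to cell (Spearman 0.923 over 19 cells of 1 library), whereas Lcn3 ran against Obp2a (Spearman -0.523). Since these genes took so much of each cell, a higher share of 1 lowers the share of the others. Lcn3 exceeded Obp2a in 4 of the 19 cells. The sum also led a few library 2 cells outside cluster 26, at no more than 12.1%, the value of 1 mature neuron-like cell. Obp1a had 0 UMIs in all 19 cells beside 140091 UMIs of Obp2a. The same cells held Lcn4, another lipocalin, at 29881 CPM and Dmbt1, a mucosal scavenger receptor glycoprotein, at 10288 CPM, and Lcn4 was at 0 in cluster 26 of library 1 and 11102 CPM in library 2.

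Obp1a, the odorant-binding protein gene on chromosome X, was present in both libraries at near-equal totals, 59562 UMIs in library 1 and 53531 in library 2. A few cells held nearly all of it. In library 1 it led 4 cells of cluster 26, with 29.8%, 17.9%, 2.58% and 1.11% of their own UMIs, and the cell with the shared barcode alone held 96.8% of the gene's UMIs in kept cells. In library 2 it led 7 cells, at 2.17% to 28.8% (median 19.0%), and the highest of them held 41.8%. The level in cluster 26 was 153036 CPM in library 1 and 34165 CPM in library 2, a log2 ratio of -2.16. Without the shared barcode it was 8592 and 34165 CPM, a log2 ratio of 1.99, and without the 3 cells richest in Obp1a in each library it was 883 and 4095 CPM, a ratio of 2.21. The direction between the libraries therefore turned with 1 cell.

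The Obp1a cells also carried its neighbours. Obp1b (chrX:78186777-78192292), a paralogous odorant-binding protein gene, stood at 169324 CPM over the 11 Obp1a-leading cells of both libraries, and Gm14743 (chrX:78240462-78245921), next along the chromosome, at 97594 CPM. Over the 10 of these cells without the shared barcode, Obp1b was at 112652, Gm14743 at 77039, Lcn11 at 52026 and Mup4 at 26504 CPM. Lcn11, the gene after Lcn3 on chromosome 2, was at 44152 CPM in these cells against 882 CPM in the Obp2/Lcn3-leading cells, and Mup4, a major urinary protein gene of the lipocalin family, was at 30580 against 0. Obp1b was 0.694% (median) of the UMIs of the 4 library 1 cells and 1.75% of the 7 library 2 cells, with highest values of 25.6% and 20.1%, so that Obp1a-leading cells differed widely in how much Obp1b they held. Obp2a was present in all 7 of the library 2 cells, at 0.0539% to 5.23% (median 0.332%). Pooled over the 7, Obp2b made up 0.791% of the Obp2a and Obp2b UMIs, against 35.8% in the Obp2/Lcn3-leading cells. The pooled value mostly reflects 1 cell of 110246 UMIs, with Obp2a at 5.23% and Obp2b at 0.00363%. Obp2b had UMIs in 3 of the 7 cells, at no more than 0.213%.

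Bpifb9a and Bpifb9b, the mouse counterparts of rat vomeromodulin, a secreted protein of nasal glands, marked a further set of cells in cluster 26. Their transcripts were 99.3% identical, and 50.6% of 90-base windows in the last 500 bases were shared, so the split of UMIs between them is uncertain; the sources used here do not say whether reads that match both were dropped or divided. Summed, they led 3 cells of library 1 (2.28% to 18.4% of the cell's UMIs, median 8.43%) and 12 of library 2 (1.88% to 11.4%, median 5.94%). Bpifb9a took a near-constant part of the sum, 22.2% to 34.0% in the 12 cells, and followed Bpifb9b from cell to cell (Spearman 0.958). The part of reads that match both genes in these 2 values was not tested. In cluster 26, Bpifb9a was at 1365 CPM in library 1 and 2732 in library 2, and Bpifb9b at 2741 and 7087. Without the shared barcode, which held none of either gene, the levels were 2724 and 2732 CPM for Bpifb9a (log2 ratio 0.00) and 5469 and 7087 CPM for Bpifb9b (0.37). These library 1 levels rest on few cells: the richest 3 held 95.8% of the Bpifb9a UMIs and 96.2% of the Bpifb9b UMIs. Without the 3 richest cells of each library, and with the shared barcode kept, Bpifb9a was at 67.6 and 1707 CPM. Bpifb9b was then at 110 and 4276 CPM. Bpifb5 (chr2:154223742-154240902), the BPI-fold gene just before Bpifb9a, stood at 6886 CPM in these cells and Odam at 673 CPM, while Obp1a, Obp2a and Lcn3 did not exceed 0.0673% of any of the 12 library 2 cells.

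**Figure D2:**
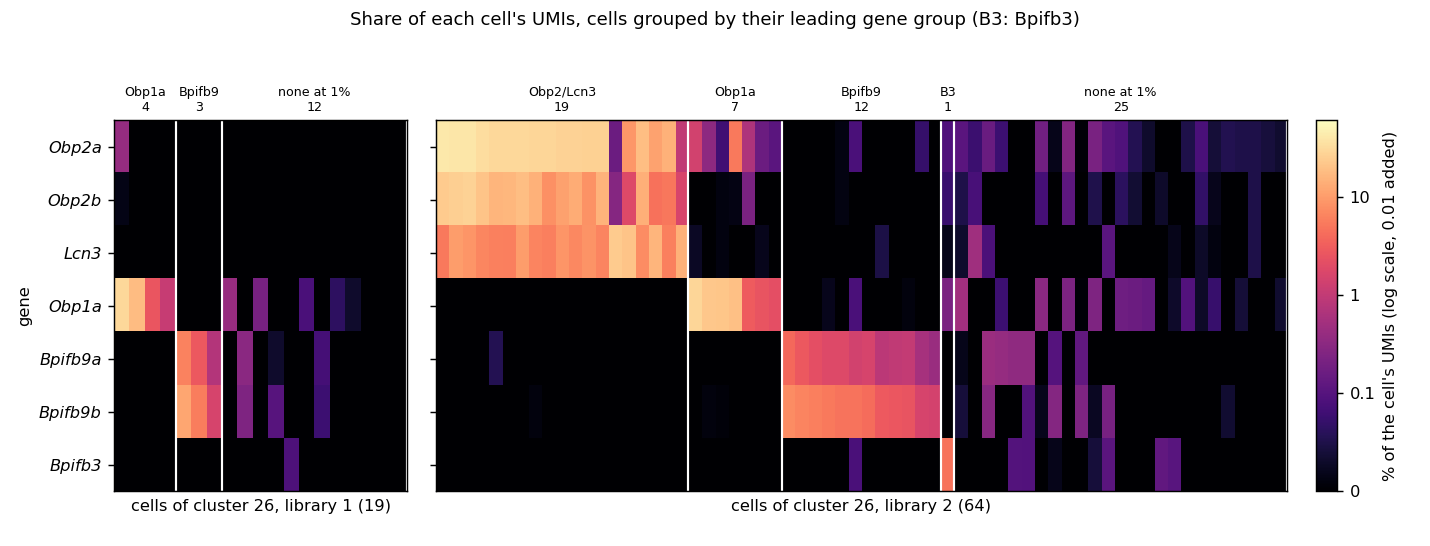
Share of the cell's own UMIs (colour, log scale with 0.01 added) taken by 7 genes (rows) in each cell of cluster 26 (columns), for the 19 cells of library 1 (left) and the 64 of library 2 (right). Cells are grouped by their leading gene group at 1% or more of own UMIs, with the number of cells under each name. The 19 Obp2/Lcn3-leading cells are all in library 2, and the blocks of Obp1a and Bpifb9 cells appear in both.

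Few cells had high levels of 2 of these groups. Counting Obp2a with Obp2b and Lcn3, Bpifb9a with Bpifb9b, and Obp1a, Bpifb3, Bpifb4 and Bpifa1 singly, 331 kept cells had a group at 1% or more of their own UMIs, and 2 of them had a second group. Both were Obp1a-leading cells of library 2 with Obp2a past the threshold. Leaving out Bpifa1, 108 cells had a group and the same count of 2 had a second. Genes joined in 1 group cannot add to this count, and the count expected for unrelated groups was not computed. The threshold was chosen after the values were seen and marks a range, not a cell type: at 0.5% there were 7 cells with a second group of 390, and at 5% there was 1 of 220. In cluster 26, 12 of 19 cells of library 1 and 25 of 64 of library 2 had no group at 1%. These cells held Ltf, the secreted iron-binding lactoferrin, at 7059 CPM in library 1 and 21282 in library 2, and Dmbt1 at 6392 and 3407 CPM.

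Bpifb3 and Bpifb4, neighbouring long BPI-fold genes first described in olfactory mucosa, were both highest in cluster 25, where no cell had both at 1% or more of its UMIs. Bpifb3 led 19 of the 37 library 1 cells, at 1.18% to 19.4% of their UMIs (median 5.35%), and 14 of the 52 library 2 cells, at 1.04% to 21.3% (7.02%). Bpifb4 led 2 library 1 cells, at 6.07% and 6.74%, and 7 library 2 cells, at 3.67% to 8.88% (6.12%). Lower levels did occur together: Bpifb4 had UMIs in 15 of the 19 Bpifb3-leading cells of library 1 (median 0.0201%, at most 0.839%) and in 9 of the 14 of library 2 (median 0.0181%). Among the 8 library 2 cells with Bpifb4 at 1% or more, 7 had 0 UMIs of Bpifb3. With only 2 and 7 Bpifb4-leading cells in cluster 25, the absence of a cell with both genes at 1% was not tested.

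Bpifb4 cells carried Bpifb6 (chr2:153900388-153912795), the BPI-fold gene that precedes Bpifb3. All 8 library 2 cells with Bpifb4 at 1% had Bpifb6 at 3.67% to 8.73% of their UMIs, and 2 of 3 in library 1 had 8.09% and 10.8%. Bpifb6 had 0 UMIs in all 16 library 2 cells with Bpifb3 at 1%. In library 1 it had 0 UMIs in 19 of 21 such cells and at most 0.114% in the others. The gene order is Bpifb6, Bpifb3, Bpifb4, so the genes at 1% in the same cells flank Bpifb3. Over both libraries the 9 Bpifb4-leading cells of cluster 25 also held Ptgds, the lipocalin-type prostaglandin D synthase, at 17183 CPM and Gpx6, an olfactory glutathione peroxidase, at 60849 CPM. Scgb1c1, a secretoglobin of olfactory mucus, was at 406089 CPM in the Bpifb3-leading cells, 207588 in the Bpifb4-leading cells and 11470 in the cells of cluster 25 with no group at 1%.

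**Figure D3:**
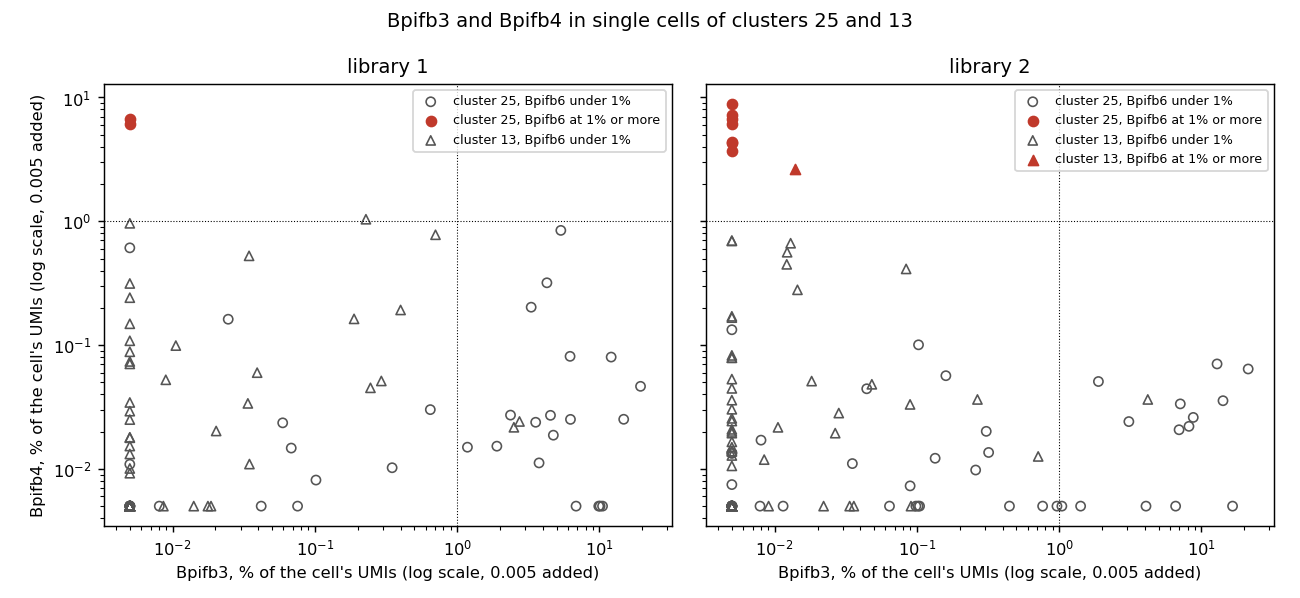
Bpifb4 against Bpifb3, each as % of the cell's UMIs (log axes, 0.005 added), for single cells of cluster 25 (circles) and cluster 13 (triangles) in library 1 (left) and library 2 (right). Filled red symbols have Bpifb6 at 1% or more, and dotted lines mark 1%. The upper right corner, with both genes at 1% or more, is empty in both libraries, and the red cells lie at or near 0 of Bpifb3.

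Between the libraries, Bpifb3 in cluster 25 was at 27645 CPM (27234 to 28061) in library 1 and 17046 (16813 to 17281) in library 2, a log2 ratio of -0.70, and 16744 and 7504 CPM without the 3 cells richest in it. Bpifb4 went the other way, at 1043 CPM (964 to 1126) and 3023 (2926 to 3123), a log2 ratio of 1.53. Its part of the summed Bpifb3 and Bpifb4 UMIs of cluster 25 was 3.63% in library 1 and 15.1% in library 2. In cluster 13 both genes were higher in library 2, Bpifb3 at 711 and 1976 CPM and Bpifb4 at 637 and 1178 CPM. There, 96.3% of the Bpifb3 UMIs of library 2 lay in 3 cells, and without the richest 3 of each library Bpifb3 was at 241 and 81.1 CPM and Bpifb4 at 376 and 320, which turned both directions. In library 1, 41.4% of all Bpifb4 UMIs lay in barcodes that the filter removed, against 13.998% in library 2. Of the UMIs of all genes, 21.2% in library 1 and 22.8% in library 2 lay in such barcodes.

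Bpifa1, the short BPI-fold protein of airway surface liquid, had the most UMIs of the 9 genes, 179876 in library 1 and 321572 in library 2. It was at 158578 CPM (157630 to 159531) in cluster 16 of library 1 and 161868 (161054 to 162685) in library 2, a log2 ratio of 0.03. This was the smallest difference among the members in their highest clusters while the cells of shared barcodes were included. The order of clusters was the same at the top in both libraries: cluster 20, unnamed and led by Kng2 and Cyp4a12b with Tff2, Lypd2 and Reg3g farther down, at 76100 and 68287 CPM, then the respiratory ciliated-like cluster 29 at 17112 and 56072 CPM. Without the 3 richest cells of each library, cluster 20 was at 45486 and 54470 CPM, so the direction between the libraries turned there, and cluster 29 at 4043 and 32757 CPM. Below them lay cluster 5, horizontal basal cell-like with Krt15, Krt14 and Krt5, at 3085 and 5932 CPM, and the ionocyte-like cluster 18 at 5004 and 4400 CPM. In cluster 18, 2 cells of each library reached 1%, and in cluster 25 of library 2, 1 cell with 11.6% of its UMIs in Bpifa1 gave nearly all of the 4654 CPM.

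Within cluster 16 the cells split into a high and a low set. Bpifa1 passed 1% in 33 of 58 library 1 cells, at a median of 28.5%, and in 58 of 86 library 2 cells, at a median of 22.9%; the remaining cells stayed at 0.694% or less. The high set of cluster 16 began at 2.57% in library 1 and 1.19% in library 2. Cluster 20 had 13 of 43 cells past 1% at a median of 17.5%, and 35 of 82 at 18.3%, with no cell between 0.526% and 3.68% in library 1 or between 0.565% and 1.69% in library 2. Cluster 29 had 6 of 28 and 19 of 50, with no cell between 0.381% and 1.36% or between 0.424% and 1.39%. Cluster 5 showed no such gap, and its cells ran on across the threshold: 12 of 164 passed it at a median of 2.50% and 29 of 248 at 2.63%, the lowest of them at 1.01% and 1.02%, beside cells below it at up to 0.793% and 0.991%. Over all clusters, 19 cells of library 1 and 31 of library 2 lay between 0.5% and 2%, beside 69 and 154 cells at 1% or more.

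The high and low cells of cluster 16 differed in other secretions, in both libraries. Muc5b, a gel-forming mucin, was at 2999 and 2429 CPM in the high cells of libraries 1 and 2 and at 578 and 833 CPM in the low cells. Bpifb1, the long BPI-fold gene next but for Bpifa5 after Bpifa1, was at 529 and 456 CPM against 12.6 and 89.8. Lyz2, a lysozyme, ran the other way at 6038 and 3616 CPM against 13002 and 14309, as did Reg3g, an antimicrobial lectin, at 28787 and 33424 CPM against 56659 and 55646, and Gp2 at 61.8 and 40.9 CPM against 281 and 323. Since Bpifa1 made up a median of 28.5% and 22.9% of the UMIs of the high cells, each other gene's CPM there is lowered by that part. In cluster 5, the cells past 1% held Krt5 at 596 CPM against 728 in the others, and Tff2, a trefoil peptide of mucus, at 314 against 53.1. The part of doublets or free RNA in these levels was not tested.

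**Figure D4:**
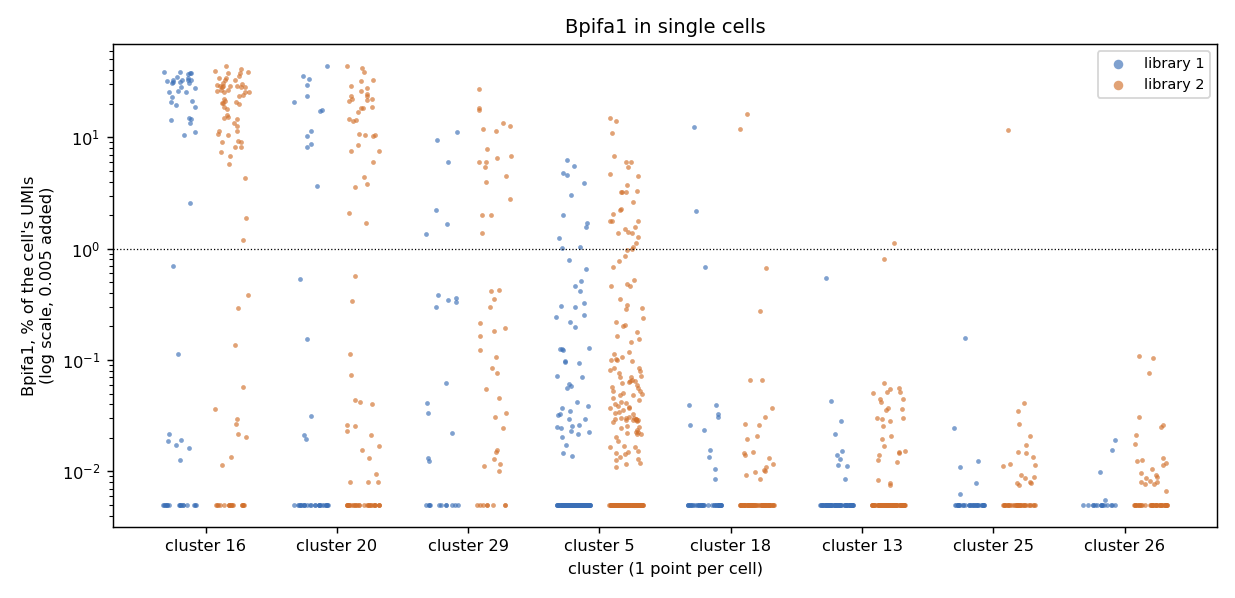
Bpifa1 as % of the cell's UMIs (log axis, 0.005 added), 1 point per cell, in 8 clusters for library 1 (blue) and library 2 (orange); the dotted line marks 1%. In cluster 16, 33 of 58 and 58 of 86 cells lie above the line with medians of 28.5% and 22.9%, and no cell lies between 0.694% and 2.57% in library 1 or between 0.379% and 1.19% in library 2.

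All 9 genes were also counted in cells that should not make them, which sets the background of free RNA. In neurons (mature and immature olfactory sensory neurons, median 5080 and 4697 UMIs) the 9 genes summed to 64.5 CPM in library 1 and 469 in library 2. In blood cells (median 2508.5 and 2397 UMIs) they summed to 114 and 668 CPM. Obp2a was the most abundant of the 9 there in library 2, at 0.592 and 175 CPM in neurons and 2.72 and 229 in blood cells. In library 2, 38.6% of neurons held an Obp2a UMI (21.4% after thinning each cell to 2000 UMIs), against 79.7% of the cells of cluster 26 (61.0% thinned), so a UMI of Obp2a in a cell does not show that the cell makes it. In library 1, 0.316% of neurons held one. Bpifb3 was at 13.9 and 16.9 CPM in neurons, where the Poisson intervals overlapped. Without the top 1% of neurons it was at 3.59 CPM (1.85 to 6.27) and 11.9 (9.04 to 15.5), and the intervals no longer overlapped.

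The make-up of the free RNA followed that of cluster 26 for Obp2a and Obp2b and less closely for Lcn3. Obp2b was 36.7% (exact binomial interval 34.1 to 39.4) of the Obp2a and Obp2b UMIs in library 2 neurons, 34.4% (31.8 to 37.0) in blood cells and 34.8% in cluster 26. Lcn3 was 12.9% (10.8 to 15.2) of the Lcn3 and Obp2a UMIs in neurons, 17.5% (15.2 to 19.9) in blood cells and 23.4% (23.2 to 23.6) in cluster 26. Barcodes under 1000 UMIs held 6403 CPM of the 9 genes in library 1 and 22295 in library 2, above the neurons. The summed level of the 9 genes in the 2 gland-like clusters stood 9.97 (9.81 to 10.14) log2 units above neurons and blood cells in library 1 and 7.95 (7.91 to 7.999) in library 2. The gland-like clusters themselves were 0.82 (0.81 to 0.83) log2 units higher in library 2, or 2.38 without the shared barcodes.

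**Figure D5:**
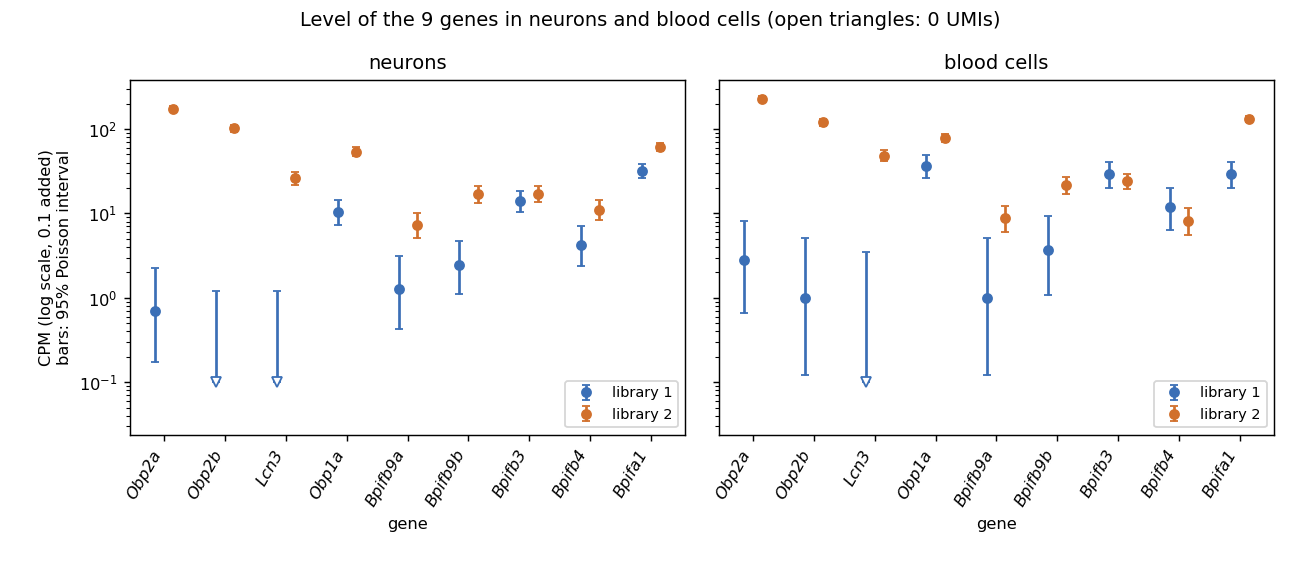
Level of the 9 genes in neurons (left) and blood cells (right) of library 1 (blue) and library 2 (orange), on a log axis with 0.1 added; bars are exact 95% Poisson intervals and open triangles mark 0 UMIs. In library 2, Obp2a is at 175 CPM in neurons and 229 in blood cells, against 0.592 and 2.72 in library 1, whereas the intervals of Bpifb3 in neurons overlap between the libraries with all neurons included, as drawn, and not without the top 1% of them.

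The members were set against all genes of the same cluster, in a description with no test. For the ratios, a gene was counted where it reached 10 CPM in either library. A gene at 0 in library 1 thus entered only through library 2, and its count as higher there was fixed by that rule. This held for Lcn3 in cluster 26, and without the shared barcode also for Obp2a and Obp2b. It held in cluster 16 for Obp2a, Obp2b and Lcn3, and in clusters 20 and 29 for Obp2a and Obp2b. It also held in cluster 13 for Obp2b and Lcn3, and in cluster 25 for Obp2b. In cluster 26, 7 of the 8 members at 10 CPM or more were at least 2-fold higher in library 2, against 8.5% of 6234 genes, and 1, Obp1a, was 2-fold higher in library 1, against 10.7%. The median log2 ratio was 3.78 over these members and -0.10 over all genes, with the shared barcode included. Without it, 6 of 8 were at least 2-fold higher in library 2 (2.63% of 7896 genes), namely Obp1a, Obp2a, Obp2b, Lcn3, Bpifb3 and Bpifa1, and 0 of 8 in library 1 (49.3%), with medians of 3.47 over these members and -0.98 over all genes. Bpifb9a and Bpifb9b were no longer among them. Bpifa1 and Bpifb3 were counted with and without the shared barcode. Bpifa1 did not exceed the free RNA level in cluster 26 of either library. Bpifb3, at 682 CPM in library 2, had 99.3% of its UMIs there in 3 cells and was at 5.07 CPM without them. In cluster 25, 5 of 6 members were at least 2-fold higher in library 2 (8.03% of 8554 genes) and 0 of 6 in library 1 (3.39%), but of those 5 only Bpifb4 and, through 1 cell, Bpifa1 exceeded the free RNA level there. In cluster 16, 4 of 6 were 2-fold higher in library 2 (4.62% of 8482 genes) and 0 of 6 in library 1 (4.59%). The 4 were Obp2a, Obp2b, Lcn3 and Obp1a, of which Obp1a alone, at 111 CPM in library 2, exceeded the free RNA level there. It did so through 3 cells that held 89.4% of its UMIs, and without the richest 3 cells of each library Obp1a was at 11.03 and 12.2 CPM. In cluster 13, 5 of 7 were 2-fold higher in library 2 (3.73% of 8846 genes) and 1 of 7 in library 1 (2.48%). The 5 included Obp2a, Obp2b and Lcn3, none of them above the free RNA level there. The others were Bpifa1 and Bpifb3, and the direction of Bpifb3 turned without its 3 richest cells as given above. Of the Bpifa1 UMIs of cluster 13, 94.9% in library 1 and 90.1% in library 2 lay in 3 cells. Without those cells Bpifa1 was at 8.82 and 43.4 CPM, below its level in neurons and in blood cells of each library. The 1 higher in library 1 was Obp1a, also not above free RNA. In cluster 20 the counts were 2 of 4 (7.79% of 8881 genes) and 0 of 4 (3.75%), and in cluster 29 they were 3 of 4 (8.77% of 10067 genes) and 0 of 4 (7.44%), with Bpifa1 among the 3. Levels above the free RNA of neurons and blood cells were found in cluster 26 for 5 of 7 members in library 1 (7.38% of 5610 genes) and 7 of 8 in library 2 (10.7% of 5083). Without the shared barcode, the library 1 count was 3 of 5 (9.5% of 7682 genes), namely Bpifb9a, Bpifb9b and Obp1a. In libraries 1 and 2, such counts were 2 of 4 (10.8%) and 3 of 6 (14.2%) in cluster 25, 3 of 4 (19.5%) and 3 of 6 (21.9%) in cluster 13, and 1 of 3 (15.1%) and 2 of 6 (16.9%) in cluster 16. They were 1 of 2 (16.7%) and 1 of 4 (20.1%) in cluster 20, and 1 of 2 (23.1%) and 1 of 4 (25.3%) in cluster 29, in each case Bpifa1.

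Other genes of the same families and of the secretory route were compared in the same cells, counted by the same rule. Lcn4 was at 0 in cluster 26 of library 1, so it entered only through library 2. Of 12 other BPI-fold genes, Bpifb5 alone was measured at 10 CPM in cluster 26, at 400 CPM in library 1 (798 without the shared barcode) and 1330 in library 2, and Bpifb6 and Lbp in cluster 25. Of 26 other lipocalin genes in the matrix, 7 were measured in cluster 26, and 4 of them, Obp1b, Mup4, Mup5 and Mup6, were at least 2-fold higher in library 1 while Lcn4 was higher in library 2. These counts contain the cell with the shared barcode, with Obp1b at 25.6% of its UMIs. Without it the direction turned: 6 were measured, all 6 were at least 2-fold higher in library 2 and 0 in library 1 (median log2 ratio 5.23, from -1.76 with it), and Obp1b was at 845 and 23001 CPM. Of 23 other mucosal secretions, 11 were measured in cluster 26, with 3, the mucins Muc2 and Muc16 and the secretoglobin Scgb1c1, at least 2-fold higher in library 2 and 0 in library 1 (median log2 ratio 0.65). Without the shared barcode these 3 stayed 2-fold higher in library 2, Muc1 and Sftpd were 2-fold higher in library 1, and the median was -0.24. All 15 genes of the secretory pathway were measured there, and 6 were at least 2-fold higher in library 2, among them Sdf2l1 and Pdia6, which act in protein folding in the endoplasmic reticulum, with 0 higher in library 1 (median 0.79). Without the shared barcode 2 were, Sdf2l1 and Kdelr3, with 0 higher in library 1 and a median of -0.01. The 8 gland transcription factors showed no 2-fold ratio (median -0.27), with Sox9 at 158 and 150 CPM. Without the shared barcode 6 of the 8 were 2-fold higher in library 1 (median -1.18), Sox9 at 310 and 150 CPM, where the median over all genes was -0.98. In cluster 25, 1 of 15 secretory pathway genes and 0 of 7 measured transcription factors passed 2-fold higher in library 2 (medians -0.15 and 0.02).

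Markers of other cell types differed in level in cluster 26. The 12 mature neuron markers summed to 7.89 CPM in library 1 and 23.8 in library 2, with 10 and 6 of them at 0. The 7 respiratory ciliated markers summed to 2.63 and 1.40 CPM, and the 7 respiratory secretory markers to 81.5 and 97.96 CPM, with Agr2 at 73.6 and 69.3 and Scgb1a1, Muc5ac, Tff2 and Gp2 at 0. The 10 sustentacular markers summed to 8104 and 3089 CPM, of which Cyp2a5 gave 6744 and 2173, and the 9 neutrophil markers to 3824 and 6467 CPM, of which Ltf, also a gland product, gave 3819 and 6441. In library 1 without the shared barcode the sustentacular sum was 14596 CPM, with Cyp2a5 at 11893, the neutrophil sum 7594, with Ltf at 7584, and the neuron sum 15.7. With or without that cell, the sustentacular and neutrophil sums in library 1 lay above the level of Bpifb9a there. In cluster 25 the neutrophil markers summed to 4593 and 2573 CPM, led by S100a8 at 1635 and 977. The part of such cells in the members' levels was not tested.

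Over the 72 cluster and library combinations, which share libraries and free RNA, the genes most like each member by Pearson correlation of log2(CPM + 1) were taken from 9909 genes. Bpifa1 was most like Tff2 (0.88), Reg3g (0.86) and Foxa1 (0.83). Bpifb3 was most like 5430419D17Rik and Gpx6 (both 0.78) and Msx2 (0.70), and Bpifb4 like Bpifb6 (0.84). Bpifb9a was most like Gm14744 (0.88) and Bpifb9b like 2310003L06Rik (0.80), which stood at 6041 CPM in the Bpifb9-leading cells. Obp1a was most like Gm14743 (0.89) and Obp1b (0.87). Lcn4 came first for Obp2a (0.80), Obp2b (0.88) and Lcn3 (0.90). Among the members, the closest pairs were Lcn3 with Obp2b and Obp2a with Obp2b (both 0.94), and Bpifa1 had a correlation of at most 0.14 with any other. Likeness over clusters did not carry over to single cells in each case: Gm14744 was at 17676 CPM in Obp1a-leading cells and 0 in the Bpifb9-leading cells, although Bpifb9a and Gm14744 had the same highest cluster.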

How the data were processed

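The deposited matrix holds raw UMI counts per gene and barcode for both libraries, which the authors made with Cell Ranger 3.0.2 on mm10, per the submitters' processing notes; the sources used here do not say whether depth was equalised when the libraries were joined. The members and gene lists were chosen with earlier results of these data known. Kept cells (at least 1000 UMIs, 500 genes, at most 10% mitochondrial UMIs) were scaled to 10000, and 2000 variable genes without the members, 30 components, 15 neighbours and Leiden resolution 1 gave the clusters (scanpy 1.11.5, leidenalg 0.10.2). A cluster was named from at least 3 fixed markers among its 50 leading genes. Log2 ratios add 1 CPM. Named genes were the members, for each the 3 most like genes, and list genes at 10 CPM or more in cluster 25 or 26; neighbours on the chromosome and genes contrasted between cell sets were chosen after their values were seen. Intervals are exact 95% Poisson (CPM) or Clopper-Pearson (shares), checked on simulated counts. Alternatives covered filters, doublets, clustering, free RNA, scaling and the cells richest in the members. Sequences are from RefSeq, GRCm38.p6, for 8 members printed, and the promoter windows were matched by symbol for all 9.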

Additional observations from a re-analysis of the deposited data

How the results depend on the processing

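No paired analysis was possible because each side has 1 library, both from 1 mouse per the labels, and no test was made. The main values are a share of the members' UMIs in the gland-like clusters of 33.9% in library 1 and 56.0% in library 2, an excess over free RNA of 9.97 and 7.95 log2 units, and a library 2 over library 1 log2 ratio of 0.82. In that order these became 9.07%, 45.0%, 8.39, 7.70 and 2.36 with no filter on cells; 69.8%, 85.3%, 10.51, 8.71 and 0.90 at no more than 5% mitochondrial UMIs; 26.1%, 51.4%, 10.97, 8.74 and 0.55 at resolution 0.5; 34.1%, 56.4%, 9.79, 8.10 and 0.91 at resolution 2.0; and 8.85%, 47.3%, 7.94, 7.55 and 2.45 without the 3 richest cells of each library. With at least 2500 UMIs the second share became 55.3% and the excesses 10.37 and 7.61; with doublets removed the shares became 34.2% and 59.4%, the library 2 excess 8.25 and the ratio 0.91; with the members kept in clustering the library 2 excess became 8.19 and the ratio 0.95; and per UMI of all other genes the ratio became 0.92. The excesses became 10.22 and 8.20 over neurons, 9.40 and 7.69 over blood cells, 3.61 and 2.63 over barcodes under 1000 UMIs, and 10.34 and 8.46 without the top 1% of reference cells. Chosen after seeing the data, leaving out the shared barcodes gave 12.1%, an excess of 8.41 in library 1 and a ratio of 2.38, and turned the direction of the lipocalin list in cluster 26, as given beside it; cells with 2 member groups numbered 7 and 1 at thresholds of 0.5% and 5%, against 2. The count of members highest in the gland-like clusters was 8 except for 7 with no filter, where Obp1a was highest in an unnamed cluster, and 6 at resolution 0.5, where Bpifb3 and Bpifb4 were. The ratio of Bpifa1 in cluster 16, 0.03, turned to -0.0092 with no filter, -0.0379 with at least 2500 UMIs, -0.10 with doublets removed and -0.12 at resolution 2.0. Over the gland-like clusters Bpifb3 turned from -1.08 to 5.89 at resolution 0.5, where cluster 25 was no longer in the class, and Obp1a from -1.64 to 3.24 without the 3 richest cells and 3.17 without the shared barcodes. Lcn3, Obp2a and Obp2b were higher in library 2 under every alternative run. Apart from the cells left out, the cause of these moves was not tested. The class held 56 and 116 cells, and depth limits a count of 0 in cluster 26 of library 1 to 15.7 CPM without the shared barcode; cells of the class differ so much that counting intervals understate the spread.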
